A study of Thermothelomyces thermophilus with 18 samples.

Results

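In Myceliophthora thermophila growing on cellulose, 67 of the 9109 genes in the count table had a higher group mean in a strain lacking the transcription factor MtTRC-1 after 4 h and a lower one in the same strain after 6 h. The early difference of some of them rested on few reads or on overlapping libraries, as given below. These reversal genes were chosen by their values. Counts were divided by median-of-ratios size factors over all 18 libraries and averaged by group, and 1 was added to each mean. A gene entered when its highest group mean was at least 100, when ΔMttrc-1 was more than 2 times MtWT at 4 h on Avicel, and when ΔMttrc-1 was less than 0.5 times MtWT at 6 h on Avicel. At that level 7652 genes qualified, and the reversal genes were 0.876% of them. All 67 reached the level in the Avicel groups alone, and all 67 passed the filter of the test used on starch. The opposite order, lower at 4 h and higher at 6 h by the same folds, was found in 22 genes.

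The fungus is a thermophile that secretes enzymes to degrade plant cell walls. The wild type MtWT (strain ATCC 42464) was compared with ΔMttrc-1, in which the gene for MtTRC-1 was replaced with a selection marker in MtWT by CRISPR-Cas9 editing. Mycelium of both strains came from 16 h of culture in 2% glucose at 45 °C and was washed before transfer. The new carbon source was 2% Avicel, which is microcrystalline cellulose and was sampled at 4 h and at 6 h, or 2% starch, sampled at 4 h. The 6 groups were therefore MtWT and ΔMttrc-1 at Avicel 4 h, Avicel 6 h and starch 4 h, each with 3 libraries, given in the study's methods as separate biological replicates. No complemented strain was among them, and no sample was taken at the time of transfer. The number of ΔMttrc-1 transformants behind the libraries is not given in the sources used here.

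A fungus moved from glucose to cellulose first loses repression by glucose and then responds to the soluble sugars that its enzymes release from the polymer, so that transcript levels change over hours. Genes for 1 metabolite often lie side by side in fungal genomes and are transcribed together. Such groups commonly hold a large synthase whose carrier domain bears a phosphopantetheine arm, on which the growing product is held while other enzymes act on it.

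Library totals ranged from 17250057 to 24387079 counts, and the 10 most abundant genes of a library took 5.69% to 10.2% of its counts. Size factors were 0.715 to 0.880 at Avicel 4 h in both strains. At Avicel 6 h they differed between the strains, at 0.801 to 0.884 in MtWT and 1.26 to 1.39 in ΔMttrc-1. The 2 control genes shifted little, with log2 ratios of ΔMttrc-1 to MtWT of -0.23 and -0.18 for actin (Mycth_2314852) and of -0.11 and 0.11 for the translation elongation factor gene tef-1 (Mycth_2298136) at Avicel 4 h and 6 h. Strain names are those of the labels, without a check by the deleted gene, whose expression is not analysed here. In bulk mycelium, fewer cells that express a gene and less RNA per cell cannot be told apart.

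The reversal genes took a mean of 1.82% of all counts in MtWT at Avicel 4 h and 7.82% in ΔMttrc-1, where the 3 libraries lay between 7.46% and 8.12%. At Avicel 6 h the order was the other way, with 3.44% in MtWT and 0.817% in ΔMttrc-1. On starch, which the fold conditions did not use, the summed shares were 2.04% and 1.76%. That sum joined parts that differed in opposite directions, with a run of 5 neighbouring genes at 1.04% in MtWT and 0.589% in ΔMttrc-1, a set of 5 short genes at 0.0689% and 0.0993%, and the other genes at 0.933% and 1.08%. The run of 5 held 54.3% of the reversal gene counts in ΔMttrc-1 at Avicel 4 h. The summed share of the 5 short genes, described as hypothetical proteins, ranged from 0.338% to 1.11% of all counts among the 3 MtWT libraries at Avicel 4 h, a wider range than that of the run of 5 or of the other genes together.

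**Figure D1:**
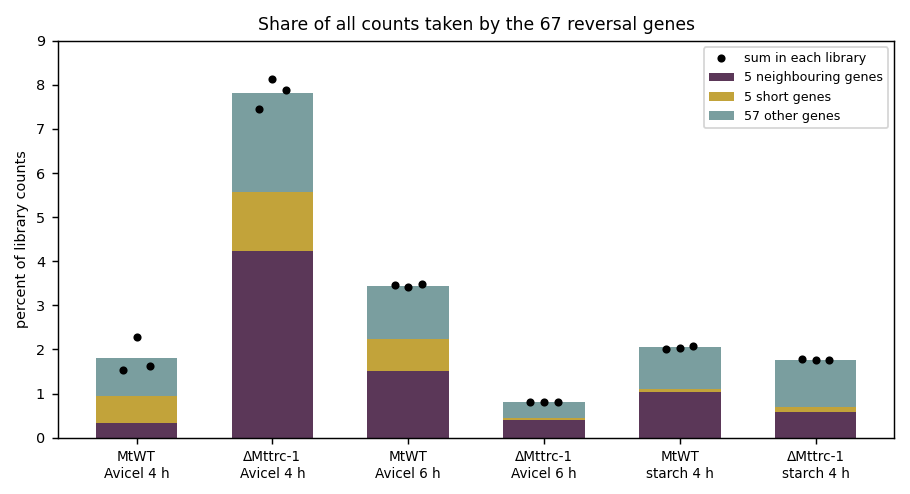
Percent of each library's counts taken by the 67 reversal genes, in the 6 groups of 3 libraries. Bars are group means split into the run of 5 neighbouring genes, the 5 short genes and the 57 other genes, and black points are the summed share in each library. The ΔMttrc-1 mean is 7.82% at Avicel 4 h and 0.817% at Avicel 6 h, against 1.82% and 3.44% in MtWT.

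On the log2 scale of group means plus 1, the ratio of ΔMttrc-1 to MtWT at Avicel 4 h ran from 1.02 to 4.73 among the reversal genes, with a median of 1.71. At Avicel 6 h it ran from -7.77 to -1.03, with a median of -1.92. The distance between the 2 ratios had a median of 3.92 and was over 4 in 32 genes. These values chose the genes and are given without a test. At the same level, 5.62% of genes were more than 2 times higher in ΔMttrc-1 at Avicel 4 h and 12.2% were less than 0.5 times MtWT at Avicel 6 h. Of the 430 genes past the first condition, 67 also passed the second, 68 were more than 2 times higher again at Avicel 6 h, and 295 lay within 2-fold.

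The libraries of the 2 strains did not overlap in any of the 67 genes at Avicel 6 h, where 41.3% of genes at that level were lower in ΔMttrc-1 without overlap. At Avicel 4 h they did not overlap in 57 of the 67, against 32.1% of genes higher without overlap. Both held in 57 reversal genes and in 10.2% of genes at that level. The fold conditions used these same libraries and directions, so nothing is read from the excess over other genes. The 10 genes with overlapping libraries at Avicel 4 h were the 5 short genes and Mycth_2063631, Mycth_2310279, Mycth_2307803, Mycth_2115472 and Mycth_2128790. Counts were low in some genes, and 9 reversal genes had fewer than 100 raw counts over the 6 Avicel 4 h libraries together. In these 9, the 3 MtWT libraries held 0 to 25 counts per gene and the 3 ΔMttrc-1 libraries 6 to 84, so that their early difference rests on few reads.

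Just inside the Avicel 4 h threshold lay Mycth_112322, Mycth_2296430 and Mycth_2294197, with ratios of ΔMttrc-1 to MtWT of 2.02, 2.03 and 2.08. Just outside it lay Mycth_2299772, Mycth_83595 and Mycth_2300142, at 1.99, 1.99 and 1.97. Just inside the Avicel 6 h threshold lay Mycth_2309573, Mycth_82782 and Mycth_2295966, at 0.489, 0.479 and 0.473. Just outside it lay Mycth_70142, Mycth_74026 and Mycth_2309088, at 0.503, 0.503 and 0.510. The genes on either side of a threshold therefore differed by a few percent.

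**Figure D2:**
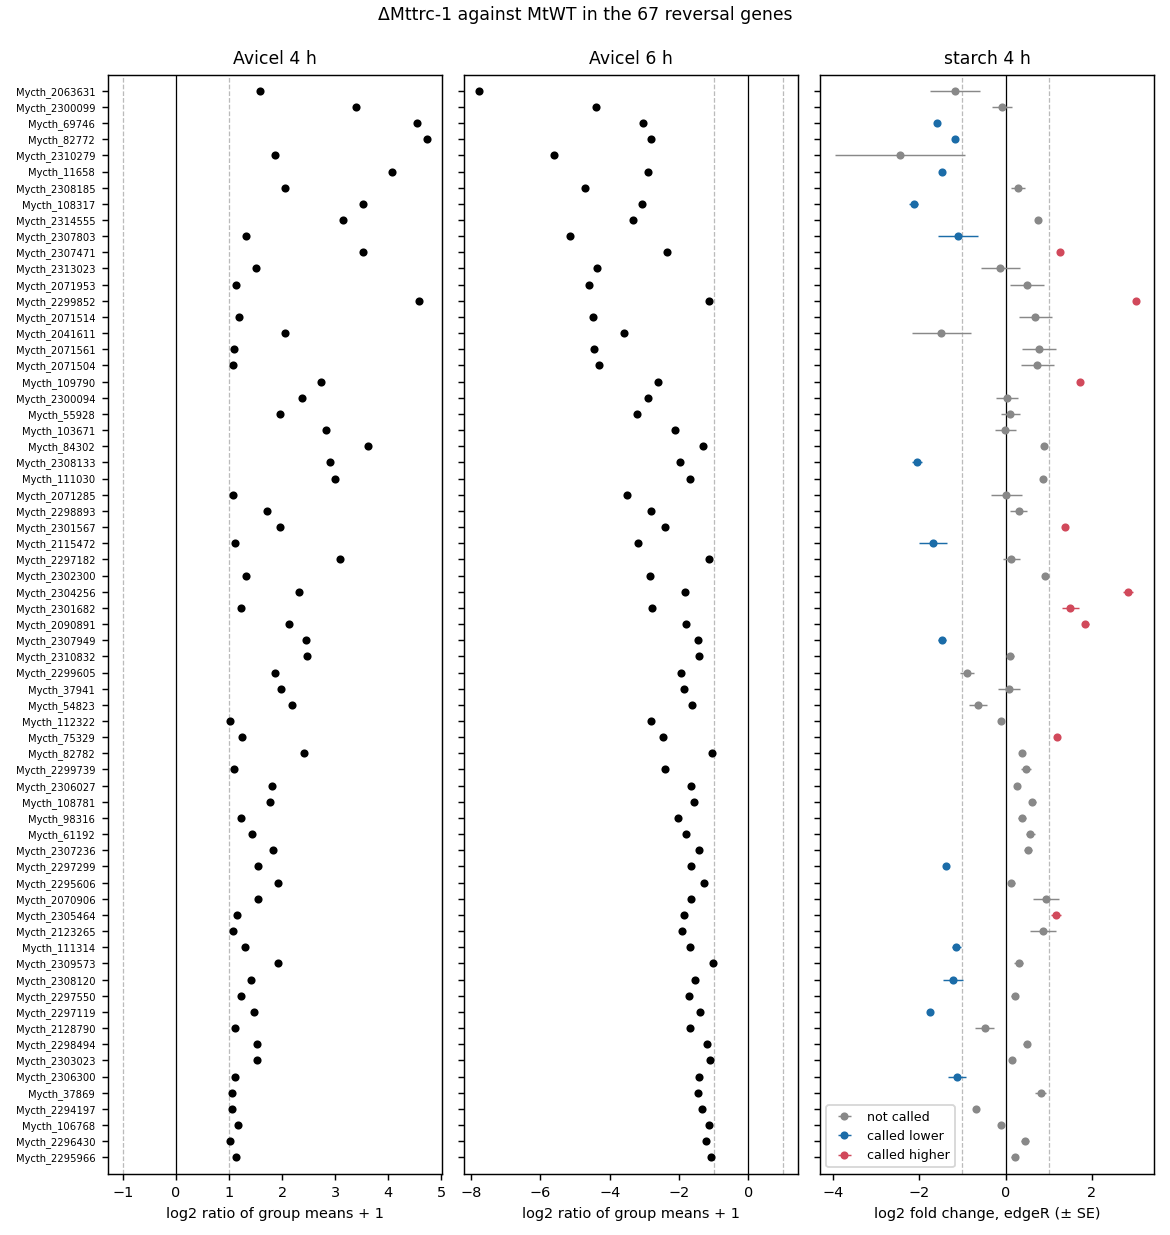
Deletion effect in each of the 67 reversal genes, ordered from the largest distance between the 2 Avicel ratios at the top. The first and second panels give the log2 ratio of ΔMttrc-1 to MtWT group means plus 1 at Avicel 4 h (1.02 to 4.73) and at Avicel 6 h (-7.77 to -1.03), and the third gives the edgeR log2 fold change with its SE on starch, where 13 genes were called lower and 9 higher. Dashed lines mark 2-fold.

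The rule was named for an early rise in ΔMttrc-1 and a later one in MtWT. A rise before 4 h was not measured, because the first samples were taken at 4 h, so the name could be checked only for the change from 4 h to 6 h. Between 4 h and 6 h on Avicel, MtWT went up more than 2-fold in 42 of the 67 genes, stayed within 2-fold in 24 and went down in 1, Mycth_111314. At the same level of expression, 5.96% of genes went up more than 2-fold in MtWT. ΔMttrc-1 went down to less than 0.5 times its 4 h mean in 48 genes, stayed within 2-fold in 14 and went up in 5, while 10.6% of genes at that level went down. MtWT up with ΔMttrc-1 down was seen in 23 genes, and MtWT within 2-fold with ΔMttrc-1 down in 24. In the other genes, MtWT went up while ΔMttrc-1 stayed within 2-fold (14) or went up less (5), or both went down (1). These ratios use the libraries that chose the genes and are a description.

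The highest of the 6 group means was that of ΔMttrc-1 at Avicel 4 h in 37 genes, against 18.2% of genes at that level, and that of MtWT at Avicel 6 h in 28, against 19.0%. The fold conditions bar MtWT at Avicel 4 h and ΔMttrc-1 at Avicel 6 h from being highest, so nothing is read from these counts. By the same arithmetic every gene of the first class went down in ΔMttrc-1 and every gene of the second went up in MtWT. The rule did not set the change in the other strain, with 12 of the 37 going up in MtWT and 9 of the 28 going down in ΔMttrc-1. The remaining 2 genes, Mycth_84302 and Mycth_2298494, were highest in ΔMttrc-1 on starch. The level that MtWT reached at 6 h was within 2-fold of the ΔMttrc-1 level at 4 h in 22 genes, more than 2 times above it in 20 and less than 0.5 times in 25. The early ΔMttrc-1 level and the later MtWT level were thus similar in only 22 of the 67. On starch, MtWT lay above its Avicel 4 h mean in 47 genes and between its Avicel 4 h and 6 h means in 41. The fold conditions favour genes with a low MtWT mean at Avicel 4 h, which was the lowest of the 6 in 32 genes. The share over all genes was not computed, so nothing is read from the counts on starch.

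**Figure D3:**
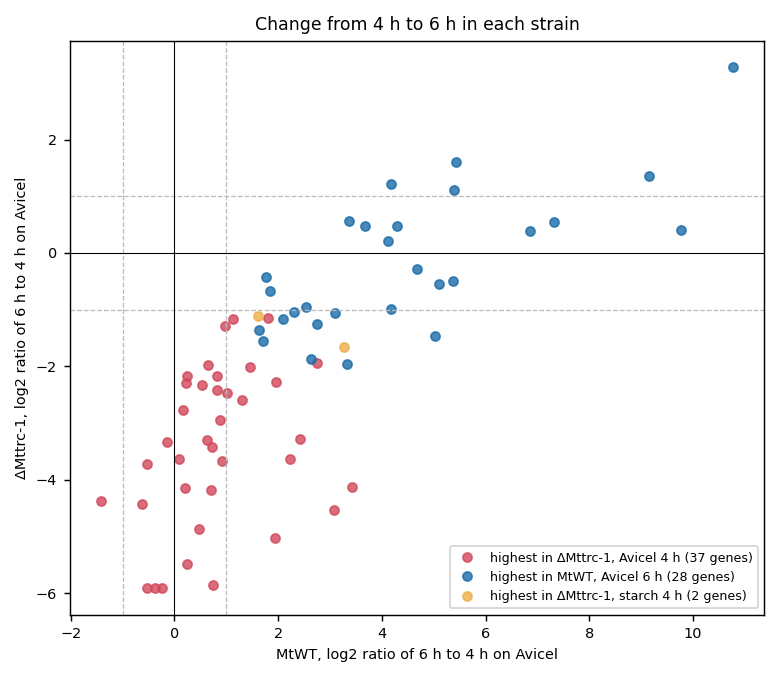
Change from 4 h to 6 h on Avicel in the 67 reversal genes, as the log2 ratio of group means plus 1, in MtWT (horizontal) and in ΔMttrc-1 (vertical). Each point is a gene, coloured by the group with its highest mean (37, 28 and 2 genes), and dashed lines mark 2-fold. The fold conditions fix that the 37 genes lie below the lower dashed line and the 28 right of the right one, while 12 of the 37 also lie right of it and 9 of the 28 also lie below the lower one.

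The run that held most of these counts was made up of 5 genes, Mycth_82782, Mycth_11658, Mycth_108317, Mycth_69746 and Mycth_82772. They follow each other in the RefSeq order of the genes in the count table. Mycth_108317 carries the description phosphopantetheine attachment site, the carrier domain of polyketide and nonribosomal peptide synthases, and is the longest of the 5 by the length that counts and RPKM imply. Mycth_11658 is described as a transferase, and no description of the other 3 was at hand. The run took 0.335% of all counts in MtWT and 4.23% in ΔMttrc-1 at Avicel 4 h, and 1.52% and 0.406% at Avicel 6 h. Within each group the 3 libraries were close, from 4.09% to 4.32% in ΔMttrc-1 at Avicel 4 h.

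At Avicel 4 h, normalised counts of Mycth_108317 were 25446, 26037 and 18168 in the 3 MtWT libraries and 263592, 246633 and 295006 in the 3 ΔMttrc-1 libraries. By 6 h they were 39495, 40021 and 37457 in MtWT and 4761, 4688 and 4468 in ΔMttrc-1. On starch they were 56380, 56516 and 54142 in MtWT and 12641, 12858 and 12894 in ΔMttrc-1. ΔMttrc-1 was thus far above MtWT in every library early on Avicel and far below it in every library later and on starch. The ratio was 11.6 at Avicel 4 h, and MtWT was 8.40 times ΔMttrc-1 at Avicel 6 h. On starch the log2 fold change was -2.13 ± 0.10 (SE), with an edgeR quasi-likelihood adjusted p of 1.14e-11 (Benjamini-Hochberg over 8573 genes).

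Mycth_82772, the last gene of the run, had the largest early ratio of all 67 genes. Its normalised counts at Avicel 4 h were 8710, 8427 and 10680 in MtWT and 255393, 240605 and 242112 in ΔMttrc-1, a ratio of 26.5. The Avicel 6 h values were 97532, 103127 and 97352 in MtWT and 14308, 13865 and 14143 in ΔMttrc-1. MtWT went from its lowest level to its highest within these hours, and ΔMttrc-1 went from its highest to near its lowest. On starch the counts were 24819, 24345 and 26073 in MtWT and 11013, 11244 and 11529 in ΔMttrc-1, a log2 fold change of -1.17 ± 0.060 (SE, edgeR adjusted p = 1.35e-14).

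Mycth_69746 and Mycth_11658 showed the same exchange between strains on Avicel. Normalised counts of Mycth_69746 at Avicel 4 h were 9975, 9423 and 10683 in MtWT and 247410, 226727 and 225936 in ΔMttrc-1. Those at Avicel 6 h were 83191, 84147 and 84669 in MtWT and 10366, 9866 and 10155 in ΔMttrc-1. The libraries of the strains were apart at both times, with the higher strain exchanged. For Mycth_11658 the counts were 9813, 9116 and 8221 in MtWT and 146049, 149401 and 161159 in ΔMttrc-1 at Avicel 4 h. Later, at 6 h, they were 35662, 35409 and 33502 in MtWT and 4704, 4505 and 4710 in ΔMttrc-1. On starch both genes were lower in ΔMttrc-1 with no overlap. The log2 fold changes there were -1.60 ± 0.049 for Mycth_69746 and -1.48 ± 0.055 for Mycth_11658 (SE), with edgeR adjusted p of 3.18e-19 and 1.79e-17.

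Mycth_82782, at the other end of the run, differed between strains in the same direction as the 4 genes at both Avicel times, but by less. Its ratio of ΔMttrc-1 to MtWT at Avicel 4 h was 5.36, against 11.6 to 26.5 in the 4 genes. On starch its direction was opposite to theirs. Its normalised counts were 31272, 33385 and 41690 in MtWT and 180855, 187631 and 201060 in ΔMttrc-1 at Avicel 4 h. By 6 h they were 71314, 68707 and 73902 in MtWT and 33776, 34614 and 33972 in ΔMttrc-1, which places the gene just inside the threshold. On starch they were 47008, 47625 and 45005 in MtWT and 62556, 60269 and 61702 in ΔMttrc-1, higher in every ΔMttrc-1 library. The log2 fold change on starch was 0.39 ± 0.069 (SE, edgeR adjusted p = 5.23e-05), under the 2-fold limit. As a share of the counts of the run, Mycth_82782 made up 25.5% in MtWT and 58.9% in ΔMttrc-1 on starch (means of 3 libraries). The share was 40.7% and 17.4% at Avicel 4 h, and 21.7% and 50.5% at Avicel 6 h.

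The genes on either side of the run did not pass both fold conditions. Mycth_2064854, described as a SANT domain DNA-binding protein, had log2 ratios of 0.37 at Avicel 4 h and -0.96 at Avicel 6 h. Mycth_108314, described as a hypothetical protein, had ratios of 1.10 and 0.15. The starch log2 fold changes of these 2 genes were -0.14 and -0.26. Overlapping genes and genes on opposite strands could not be told apart, as no source used here gives the strand setting of the counting.

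**Figure D4:**
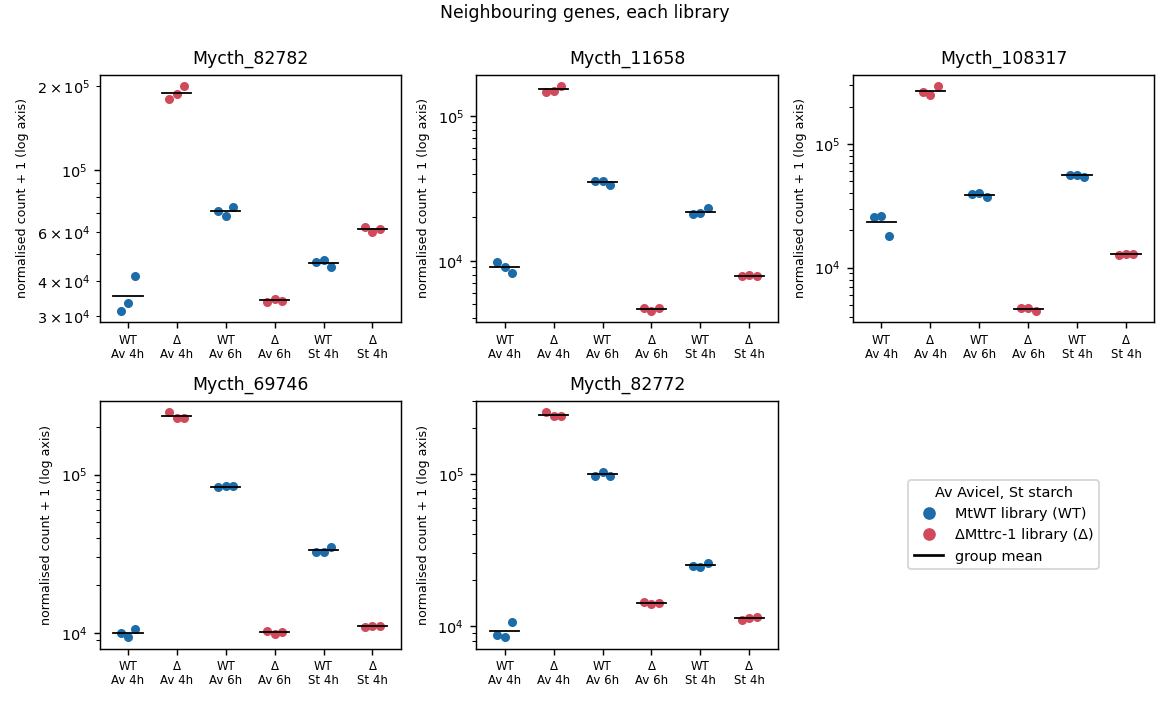
Normalised counts plus 1 (log axis, a different range in each panel) of the 5 neighbouring genes in each library of the 6 groups, with the group mean as a line. ΔMttrc-1 (red) is above MtWT (blue) in all 5 genes at Avicel 4 h and below it in all 5 at Avicel 6 h. On starch it is below MtWT in 4 genes and above it in Mycth_82782.

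Another 10 reversal genes lay beside a further member, so that 15 of the 67 stood in 5 runs. In the pair Mycth_2300094 and Mycth_2300099, both without a description at hand, raw counts were low at Avicel 4 h and the second gene reached a high level in MtWT later. Mycth_2300099 had normalised counts of 3.51, 16.1 and 10.2 in MtWT and of 109, 101 and 132 in ΔMttrc-1 at Avicel 4 h. By 6 h the values were 6097, 5938 and 6584 in MtWT and 281, 273 and 328 in ΔMttrc-1. This gene went up in both strains, and by far more in MtWT. Its partner Mycth_2300094 averaged 16.9 ± 5.64 in MtWT and 91.9 ± 26.1 in ΔMttrc-1 at Avicel 4 h, and 178 ± 30.6 and 23.0 ± 5.70 at Avicel 6 h (SD, n = 3). On starch the log2 fold changes of the 2 genes were -0.09 ± 0.23 and 0.03 ± 0.26 (SE), with edgeR adjusted p of 0.763 and 0.938.

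In the pair Mycth_2128790 and Mycth_2308185, the second gene had normalised counts of 21.1, 22.3 and 19.3 in MtWT and of 98.7, 84.2 and 86.7 in ΔMttrc-1 at Avicel 4 h. Mycth_2308185 stood later, at 6 h, at 3314, 3542 and 3598 in MtWT and at 112, 153 and 132 in ΔMttrc-1. MtWT libraries were below all ΔMttrc-1 libraries first and above all of them later. Mycth_2128790 averaged 27.8 ± 9.42 and 61.0 ± 22.8 at Avicel 4 h, where 1 ΔMttrc-1 library at 37.3 lay below the highest MtWT library at 38.4. Mycth_2128790 averaged, at 6 h, 296 ± 48.6 in MtWT and 90.8 ± 12.4 in ΔMttrc-1.

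The pair Mycth_103671 and Mycth_2308120 was low in all groups. Mycth_103671 averaged 4.29 ± 4.42 in MtWT and 36.7 ± 5.06 in ΔMttrc-1 at Avicel 4 h, then 134 ± 18.4 and 30.0 ± 5.45 at Avicel 6 h (SD, n = 3). Mycth_2308120 averaged 11.5 ± 2.97 and 32.2 ± 12.9 at Avicel 4 h, then 223 ± 32.9 and 76.0 ± 12.8. On starch Mycth_2308120 was lower in ΔMttrc-1, with a log2 fold change of -1.22 ± 0.23 (SE) and an edgeR adjusted p of 6.34e-05. The gene next to this pair, Mycth_2308119, was no member, with log2 ratios of 2.49 at Avicel 4 h and -0.75 at Avicel 6 h.

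The 5 short genes, with implied lengths of 171 to 429 bp, had an early difference that changed with the library. They are Mycth_2071285, Mycth_2071504, Mycth_2071514 and Mycth_2071953, which are neighbours, and Mycth_2071561, which had no match in the RefSeq annotation. Whether they share sequence is not analysed here. Normalised counts of Mycth_2071514 at Avicel 4 h were 30766, 84320 and 26872 in MtWT and 67857, 145832 and 109683 in ΔMttrc-1. MtWT replicate 2 was above ΔMttrc-1 replicate 1 in all 5 genes, so the groups overlapped. The coefficient of variation in MtWT at Avicel 4 h was 57.8% to 74.8% in these 5 genes, against a median of 8.69% over all genes at that level. Their log2 ratios at Avicel 4 h were 1.07 to 1.19 with all libraries and 1.65 to 1.95 without MtWT replicate 2, a choice made after seeing the data. Without MtWT replicate 1 or replicate 3, or without ΔMttrc-1 replicate 2, none of the 5 genes met the rule.

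At Avicel 6 h the same genes were tight and far apart between strains. Mycth_2071514 had 41197, 37734 and 40968 in MtWT and 1817, 1875 and 1679 in ΔMttrc-1. The log2 ratio was -4.59 to -3.51 over the 5 genes. In ΔMttrc-1 they went down from 4 h to 6 h by log2 changes of -5.92 to -3.66, while MtWT changed by -0.52 to 0.92. On starch the levels were low in both strains. Mycth_2071514 stood there at 2812, 3226 and 2922 in MtWT and at 5754, 4496 and 4343 in ΔMttrc-1. None of the 5 was called on starch, with edgeR adjusted p of 0.111 to 0.968. Per unit of length these were among the most abundant reversal transcripts, and Mycth_2071514 averaged 10703 ± 3836 RPKM (SD, n = 3) in ΔMttrc-1 at Avicel 4 h, while the longer Mycth_82772 averaged 7998 ± 386 RPKM.

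**Figure D5:**
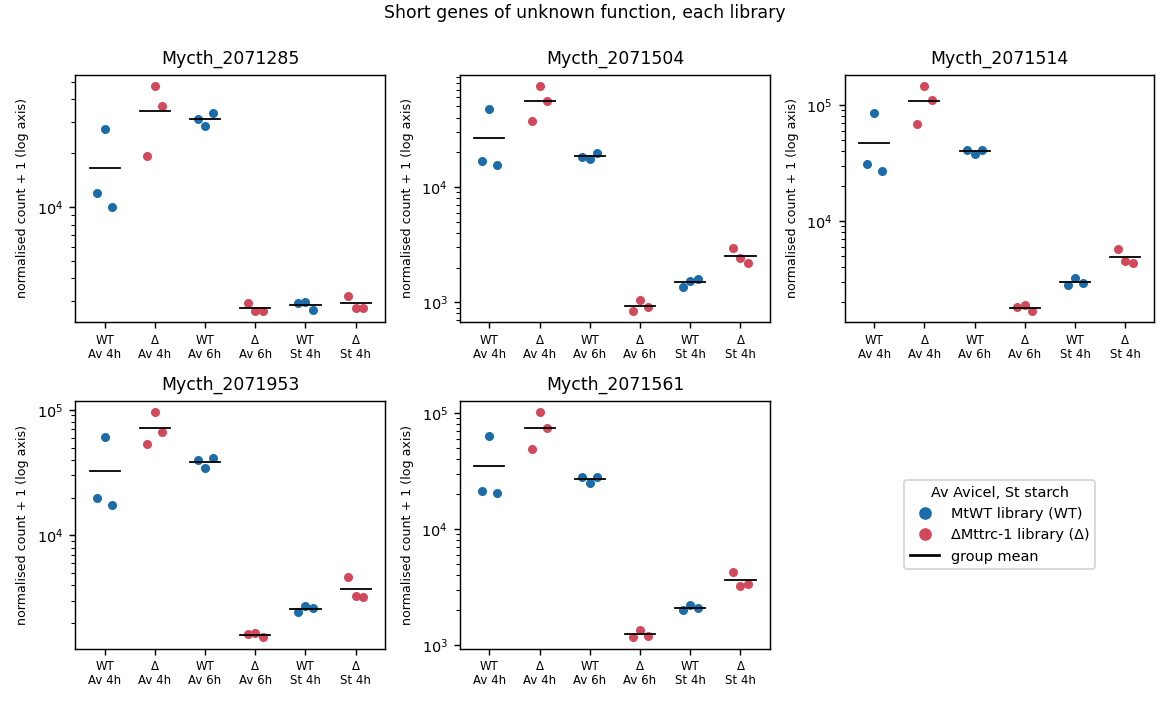
Normalised counts plus 1 (log axis, a different range in each panel) of the 5 short genes in each library of the 6 groups, with the group mean as a line. At Avicel 4 h MtWT replicate 2 lies above ΔMttrc-1 replicate 1 in every gene, and the coefficient of variation in MtWT is 57.8% to 74.8%. At Avicel 6 h every ΔMttrc-1 library lies below every MtWT library.

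Among the reversal genes with the largest distance between the 2 Avicel ratios, 4 further genes were highest in MtWT at Avicel 6 h. Mycth_2314555, for which no description was at hand, had normalised counts of 300, 303 and 318 in MtWT and of 2887, 2618 and 2675 in ΔMttrc-1 at Avicel 4 h. Its Avicel 6 h values were 9683, 10359 and 10150 in MtWT and 967, 996 and 1011 in ΔMttrc-1. The order of the strains was exchanged with no overlap at either time, and MtWT at 6 h passed the highest level of ΔMttrc-1. On starch Mycth_2314555 averaged 1356 ± 19.6 in MtWT and 2304 ± 62.9 in ΔMttrc-1, a log2 fold change of 0.75 ± 0.049 (SE, edgeR adjusted p = 1.04e-12) that lay under the 2-fold limit.

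The genes Mycth_2063631, Mycth_2310279 and Mycth_2307803 were near the limit of detection before 6 h. Mycth_2063631, described as a hypothetical protein, had 1, 0 and 0 raw counts in MtWT and 1, 2 and 4 in ΔMttrc-1 at Avicel 4 h. By 6 h it had 901, 1236 and 951 raw counts in MtWT and 4, 8 and 6 in ΔMttrc-1. Mycth_2310279 had no count in MtWT and 2, 0 and 4 counts in ΔMttrc-1 at Avicel 4 h, then 1510, 1550 and 1399 in MtWT and 48, 51 and 37 in ΔMttrc-1 at Avicel 6 h. The later difference of both genes was large in every library, and an early difference was not detectable at this depth. Mycth_2307803 had 4, 0 and 0 raw counts in MtWT and 2, 7 and 3 in ΔMttrc-1 at Avicel 4 h, then 235, 277 and 246 in MtWT and 16, 8 and 5 in ΔMttrc-1 at Avicel 6 h. On starch its log2 fold change was -1.10 ± 0.47 (SE, edgeR adjusted p = 0.0470). This call was lost when any 1 of 10 libraries was left out, with adjusted p from 0.0507 to 0.184. These were all 3 ΔMttrc-1 starch libraries, MtWT starch replicates 2 and 3, all 3 MtWT Avicel 6 h libraries, and ΔMttrc-1 Avicel 4 h replicate 3 and Avicel 6 h replicate 2.

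Most reversal genes had no known function at hand. A description was at hand for 19 of them. It read hypothetical or of unknown function in 12 of these 19 (63.2%), against 29.9% of the 1168 described genes at that level. In most of these 12 genes the early difference rested on overlapping libraries or on few reads. Among them were the 5 short genes, which varied together, and Mycth_2063631, Mycth_2115472 and Mycth_103671, which had few reads at Avicel 4 h. Of these last genes, Mycth_103671 had no overlap there, with a ratio of 7.13. None of the 11 cellulase and lytic polysaccharide monooxygenase genes and none of the 10 unfolded protein response and endoplasmic reticulum genes on lists drawn from locus tags in the study's text was a reversal gene. These lists hold only part of the genes of either kind. By keyword, 1 of the 19 was an oxidoreductase, against 6.76% of the described genes at that level. None was a transporter, a carbohydrate-active enzyme, a peptidase, a transcription regulator, a chaperone or a signalling protein. Each of these keyword groups held only 1.03% to 3.85% of those genes, so nothing is read from their absence among 19. The Barwin-related endoglucanase gene below fell outside the keywords for carbohydrate-active enzymes. The reversal genes were also short, with a median implied length of 1070 bp against 1670 bp for all genes at that level, and 22.4% of them were under 600 bp against 4.48%. Those under 600 bp included the 5 short genes and Mycth_2063631, Mycth_2115472 and Mycth_2128790, whose libraries overlapped at Avicel 4 h. They also included further genes with few reads there, so the share rests in part on members with overlapping libraries or few reads.

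Mycth_112322, a globin gene, had a group mean of counts below only that of Mycth_108317 among the reversal genes. Globins are heme proteins that bind oxygen and related small molecules. Its normalised counts at Avicel 4 h were 116672, 120266 and 144415 in MtWT and 248053, 251936 and 270941 in ΔMttrc-1. The Avicel 6 h values were 82923, 83229 and 81804 in MtWT and 11717, 11776 and 12202 in ΔMttrc-1. Both strains were lower at 6 h than at 4 h in every library, with log2 ratios of 6 h to 4 h of -0.62 in MtWT and -4.43 in ΔMttrc-1. On starch MtWT averaged 85053 ± 4104 and ΔMttrc-1 79920 ± 813 (SD, n = 3). The log2 fold change was -0.10 ± 0.057 (SE, edgeR adjusted p = 0.133).

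Mycth_111030 encodes a carbonic anhydrase, which interconverts carbon dioxide and bicarbonate. Its normalised counts were 447, 524 and 530 in MtWT and 4116, 3884 and 4011 in ΔMttrc-1 at Avicel 4 h. Those at Avicel 6 h were 3271, 3604 and 3261 in MtWT and 1023, 1043 and 1063 in ΔMttrc-1. MtWT at 6 h thus came near the level of ΔMttrc-1 at 4 h. On starch MtWT averaged 966 ± 101 and ΔMttrc-1 1774 ± 92.4, a log2 fold change of 0.86 ± 0.069 (SE, edgeR adjusted p = 6.13e-11) but under the 2-fold limit.

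Mycth_2090891 is described as a Barwin-related endoglucanase. Endoglucanases cut cellulose within the chain. Its normalised counts at Avicel 4 h were 8798, 8865 and 11954 in MtWT and 40540, 43824 and 44625 in ΔMttrc-1. Later, at 6 h, they were 14712, 15642 and 15177 in MtWT and 4262, 4400 and 4417 in ΔMttrc-1. On starch they were 4060, 3769 and 4310 in MtWT and 14428, 14966 and 14916 in ΔMttrc-1. The gene was therefore higher in ΔMttrc-1 in every library at 4 h on both carbon sources and lower in every library at 6 h on Avicel. The starch log2 fold change was 1.86 ± 0.085 (SE, edgeR adjusted p = 6.05e-13).

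The other described genes were a nitroreductase gene and genes described only by a protein family or region. Mycth_106768, a nitroreductase gene of the flavin-dependent enzymes that reduce nitro compounds, averaged 1613 ± 39.4 in MtWT and 3645 ± 215 in ΔMttrc-1 at Avicel 4 h, then 3531 ± 53.1 and 1622 ± 57.2 at Avicel 6 h (SD, n = 3). The means of the 2 strains at 6 h were close to each other's means at 4 h. Mycth_111314, described as a protein of unknown function (DUF706), averaged 3386 ± 590 and 8284 ± 707 at Avicel 4 h. At Avicel 6 h it averaged 1273 ± 45.6 and 398 ± 29.1, so both strains went down. Mycth_109790, described by a region of unknown function (DUF1936), averaged 1601 ± 135 and 10607 ± 892 at Avicel 4 h, then 2214 ± 43.6 and 364 ± 29.4. Mycth_2070906, of the ThiJ/PfpI family, averaged 82.7 ± 37.0 and 242 ± 3.19 at Avicel 4 h, then 74.3 ± 17.0 and 23.1 ± 1.94.

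The starch libraries gave the only strain comparison for these genes that was independent of the fold conditions. It asked whether the reversal genes also responded to the deletion at 4 h on another polymer. A gene was called when its edgeR adjusted p was under 0.05 and its log2 fold change was over 1 in size. Of the 67 genes, 13 (19.4%) were lower in ΔMttrc-1, against 3.86% of all 8573 genes tested and 3.35% of those at the same level. A further 9 (13.4%) were higher, against 4.12% and 3.74%. In both directions together 32.8% of the reversal genes were called, against 7.98% of all genes tested and 7.08% of those at the same level. By adjusted p alone, 16 of the 67 were lower, a smaller share than the 29.0% of all genes tested. By the same measure 28 of the 67 were higher, a larger share than the 27.7% of all genes tested. The median log2 fold change on starch was 0.21 over the reversal genes and -0.01 over all genes tested. The strains did not overlap on starch in 19 of the 67 genes that were lower, a smaller share than the 35.1% of genes at that level. They did not overlap in 33 that were higher, a larger share than 36.1%. The excess of lower genes was thus seen with the 2-fold condition and not by adjusted p alone or by overlap. The deletion effect on starch thus went both ways, in contrast to the single direction that the rule set at each Avicel time.

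Among the genes lower in ΔMttrc-1 on starch were Mycth_108317, Mycth_11658, Mycth_69746 and Mycth_82772 of the run described above. Mycth_2308133, without a description at hand, had normalised counts of 4504, 4449 and 3941 in MtWT and of 1026, 1031 and 1061 in ΔMttrc-1 on starch. At Avicel 4 h it had 1649, 1730 and 2502 in MtWT and 15436, 14413 and 14271 in ΔMttrc-1. At the same hour, ΔMttrc-1 was below MtWT on starch and above it on Avicel in every library. The starch log2 fold change of Mycth_2308133 was -2.06 ± 0.11 (SE, edgeR adjusted p = 1.19e-10). Mycth_2297119 had 1978, 1942 and 1893 in MtWT and 574, 579 and 584 in ΔMttrc-1 on starch, a log2 fold change of -1.75 ± 0.066 (SE, edgeR adjusted p = 2.12e-17). Mycth_2115472, a hypothetical protein gene, had only 63, 60 and 93 raw counts in MtWT and 12, 31 and 17 in ΔMttrc-1, a log2 fold change of -1.68 ± 0.32 (SE, edgeR adjusted p = 0.000114). The other genes called lower, Mycth_82772 and Mycth_2308120 among them, had log2 fold changes between -1.47 and -1.10.

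Among the genes higher in ΔMttrc-1 on starch, Mycth_2299852 and Mycth_2304256 stood out by size, both without a description at hand. Mycth_2299852 had normalised counts of 356, 371 and 437 in MtWT and of 3232, 3140 and 3248 in ΔMttrc-1 on starch. At Avicel 4 h it had 228, 214 and 236 in MtWT and 5704, 5207 and 5435 in ΔMttrc-1, and at Avicel 6 h 1149, 1266 and 1240 and then 511, 579 and 580. It was therefore many times higher in ΔMttrc-1 at 4 h on either carbon source. The starch log2 fold change was 3.03 ± 0.072 (SE, edgeR adjusted p = 1.87e-21).

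Mycth_2304256 had 532, 527 and 636 in MtWT and 4093, 4205 and 4009 in ΔMttrc-1 on starch. At Avicel 4 h it had 3017, 2818 and 4034 in MtWT and 16522, 15301 and 17652 in ΔMttrc-1, and at Avicel 6 h MtWT averaged 5446 ± 271 and ΔMttrc-1 1544 ± 26.3. On both carbon sources at 4 h every ΔMttrc-1 library was above every MtWT library. Its starch log2 fold change was 2.85 ± 0.11 (SE, edgeR adjusted p = 6.25e-13).

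Mycth_2090891, Mycth_109790, Mycth_2301682 and Mycth_2301567 followed on starch, with log2 fold changes between 1.37 and 1.86. Mycth_109790 averaged 1564 ± 47.7 in MtWT and 5245 ± 97.3 in ΔMttrc-1 there. Mycth_2301567 averaged 2898 ± 165 and 7574 ± 309, and Mycth_2301682, at a low level, 47.8 ± 7.11 and 137 ± 3.60. The other 3 genes called higher had log2 fold changes of 1.17 to 1.27. The edgeR adjusted p of Mycth_109790, Mycth_2301682 and Mycth_2301567 were 9.33e-18, 3.85e-07 and 2.21e-16.

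The direction on starch did not follow the class of the gene on Avicel in one way. Of the 37 genes highest in ΔMttrc-1 at Avicel 4 h, 8 were lower on starch, 8 were higher and 21 were not called. Of the 28 highest in MtWT at Avicel 6 h, 5 were lower, 1 was higher and 22 were not called. The 13 genes called lower had a median log2 ratio of 1.54 at Avicel 4 h and of -1.96 at Avicel 6 h, and the 9 called higher had medians of 2.12 and -2.36. The difference between these classes was not tested. Of the 13 genes called lower, 11 had no overlap of libraries on starch and, with ΔMttrc-1 higher, none at Avicel 4 h. This combination was seen in 0.98% of genes at that level, but the rule set the direction at Avicel 4 h, so nothing is read from the difference.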

How the data were processed

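Per the study's methods and the processing notes of the labels, the authors aligned uniquely mapped reads with TopHat2 (2.0.8b in the notes) and counted reads per gene with HTSeq (0.5.4p2), and these raw counts were deposited. The study's methods name other versions. Genome build and strand setting: not given in the sources used here. The deposited RPKM values are those counts per length and library total, and served for levels between genes and an alternative test. Titles gave groups and replicate numbers. The descriptions of MtWT replicate 3 libraries repeat the name of replicate 2. No libraries within a group were duplicates, since replicates differed by more than sampling noise (chi-square per degree of freedom 2.17 to 42.0). Libraries of different groups were not compared in this way.

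The deposited counts were fitted with edgeR 4.0.16 in R 4.3.3 (TMM, filterByExpr by group, robust glmQLFit and glmQLFTest, all 6 groups, no replicate term), which kept 8573 genes. Calls needed a Benjamini-Hochberg adjusted p under 0.05 and an absolute log2 fold change over 1. Avicel values used by the rule were described without a test. SEs are approximate, from the F statistic. The fit was tested on simulated data. Alternatives used DESeq2 1.42.0 and limma 3.58.1. The edgeR p-values set the strain difference against the spread between replicates, estimated over all 6 groups and shared across genes. They cover no variation beyond these replicates.

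Of the 67 genes, 66 matched a locus tag of RefSeq assembly ASM22609v1 (9086 of all genes did), used for names and neighbours only. Neighbours were taken in the order of matched genes, and an annotated gene absent from the count table could lie between them. Descriptions are those of the study, at hand for 1666 genes. Promoter motifs and protein sequences were not analysed here.

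The members and lists were chosen with earlier results of these data known. Genes named were the 10 with the largest distance between the Avicel ratios, the 6 with the highest group mean, the 6 most lower and 6 most higher among those called on starch, described genes, members beside another member, 3 genes either side of each threshold, and the controls. Other genes named were chosen after their values were seen: Mycth_2071561, Mycth_84302, Mycth_2298494, Mycth_2305464, Mycth_2306300 and the flanking genes Mycth_2064854, Mycth_108314 and Mycth_2308119.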

Additional observations from a re-analysis of the deposited data

Results flagged for a closer look

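In the run of neighbouring genes, 4 of the 5 were lower in ΔMttrc-1 on starch and higher at Avicel 4 h with no overlap of libraries in either comparison. Their edgeR log2 fold changes on starch were -2.13 for Mycth_108317, -1.60 for Mycth_69746, -1.48 for Mycth_11658 and -1.17 for Mycth_82772. Counted over all reversal genes, 11 of the 67 were called lower on starch while every ΔMttrc-1 library was above every MtWT library at Avicel 4 h, against 0.98% of genes at that level that had both without overlap. The rule set the direction at Avicel 4 h, so nothing is read from the contrast with 0.98%. For the same reason the difference between the carbon sources was not tested.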

How the results depend on the processing

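The 67 reversal genes became 173 with a fold of 1.5 and 24 with a fold of 3, and the other alternatives gave 55 to 71. Scaling by library totals gave 55, of which 54 were shared. That scaling moved the median log2 ratio of all genes at Avicel 6 h to 0.36, and 13 reversal genes were lost, Mycth_82782 and Mycth_2299852 among them. Leaving out 1 Avicel library at a time gave 56 to 69. Without the 5 short genes, an alternative chosen after seeing the data, 62 remained.

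On starch, a test against a fold of 2 left 8 of the 13 reversal genes called lower, and 153 lower and 211 higher of the 331 and 353 over all genes. With log2(RPKM + 1) and limma, 220 were lower over all genes. Leaving out 1 library at a time gave 12 to 14 lower and 9 to 11 higher reversal genes, and 328 to 336 lower and 346 to 368 higher over all genes. Of the 22 called reversal genes, 16 kept their call in every alternative run and 6 lost it in at least 1, with 21 lost calls against 551 kept. Mycth_2307803, at a low count, accounted for 14 of them, and Mycth_2305464, Mycth_2308120, Mycth_2115472, Mycth_111314 and Mycth_2306300 lost theirs in the test against a fold of 2. No starch direction of a called gene reversed.

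Replicate numbers showed little pairing of the libraries. Deviations of same-numbered MtWT and ΔMttrc-1 libraries correlated at -0.03, 0.00 and 0.03 on starch. The correlations were 0.07, -0.01 and 0.05 at Avicel 4 h, and 0.05, 0.03 and 0.02 at Avicel 6 h. With a replicate block, 12 reversal genes were lower and 9 higher on starch, and 329 and 349 over all genes.

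Reads limit the early difference in the 9 reversal genes under 100 raw counts. Promoter and protein comparisons were not run.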
